A study of Mus musculus with 24 samples.

Results

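The MAP kinase phosphatases are a small family of dual specificity phosphatases, and 9 of their genes were described over 4 maternal diets in newborn mouse liver and muscle. They are Dusp1, Dusp4, Dusp5, Dusp6, Dusp7, Dusp8, Dusp9, Dusp10 and Dusp16. All probe sets that carry one of these as their single gene symbol were taken, which gave 17 of the 45037 probe sets and 9 of the 18193 named genes. The set was chosen on a measured value, the liver difference of Dusp9 between low and normal maternal protein, so that contrast and those that share its arrays are given for Dusp9 as description, with no test.

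Messenger RNA was hybridised to Affymetrix oligonucleotide arrays from C57BL/6 pups killed on the day of birth (day 0). The dams received 1 of 4 diets from day 1 of pregnancy until birth. Casein made up 20% of the normal protein chow (NP) and 8% of the low protein chow (LP). In 2 of the 4 groups (NPtau and LPtau) the dams also drank water with 1% taurine, a sulfur-containing amino acid derivative. Each tissue and diet had 3 arrays, 24 in all, and this number limits the precision. The labels do not say whether the pups of a diet came from separate litters, so the p-values speak only to the variation among these samples. Values are log2 expression values, liver and muscle were normalized apart, and levels were therefore not compared between tissues or between genes. In bulk tissue, fewer cells of a type and less RNA per cell cannot be told apart.

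MAP kinase phosphatases remove the phosphates that activate the MAP kinases ERK, JNK and p38. Dusp1, Dusp4 and Dusp5 act in the nucleus and are commonly induced by growth factors or stress. Dusp6, Dusp7 and Dusp9 act mainly in the cytoplasm and prefer ERK, and Dusp6 is a classical negative feedback gene of ERK signalling. Dusp8, Dusp10 and Dusp16 prefer the stress kinases JNK and p38. Dusp9, also called MKP-4, is X-linked, is needed in the placenta and has been studied in insulin-responsive tissues including liver.

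The promoters of 3 members are shown because their array to array correlation with the immediate early gene Fos was the highest of the 9 members, Dusp1 in both tissues (r = 0.97 over 12 liver and 0.90 over 12 muscle arrays), Dusp6 in liver (0.86) and Dusp5 in muscle (0.80). Dusp7 came next in each tissue (0.73 and 0.69). RefSeq promoter entries (GRCm38.p6, 250 bases before to 50 bases after the start site) were matched for 7 of the 9 members. Dusp4 and Dusp9 were not matched. Capitals mark the motifs that were found. The Dusp1 window is chr17:26508423-26508722 on the minus strand, the Dusp5 window chr19:53528895-53529194 on the plus strand and the Dusp6 window chr10:99262981-99263280 on the plus strand.
Dusp1: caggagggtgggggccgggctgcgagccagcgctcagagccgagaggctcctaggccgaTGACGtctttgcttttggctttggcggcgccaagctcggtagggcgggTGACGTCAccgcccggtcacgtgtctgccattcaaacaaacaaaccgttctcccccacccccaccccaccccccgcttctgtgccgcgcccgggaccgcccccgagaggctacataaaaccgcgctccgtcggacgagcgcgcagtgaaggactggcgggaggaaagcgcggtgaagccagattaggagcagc
Dusp5: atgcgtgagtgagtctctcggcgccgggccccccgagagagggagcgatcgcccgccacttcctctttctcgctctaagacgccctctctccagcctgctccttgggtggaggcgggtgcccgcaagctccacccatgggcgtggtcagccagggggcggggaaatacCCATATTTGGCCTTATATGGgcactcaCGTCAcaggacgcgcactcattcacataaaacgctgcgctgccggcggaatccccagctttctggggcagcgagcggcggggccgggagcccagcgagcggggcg
Dusp6: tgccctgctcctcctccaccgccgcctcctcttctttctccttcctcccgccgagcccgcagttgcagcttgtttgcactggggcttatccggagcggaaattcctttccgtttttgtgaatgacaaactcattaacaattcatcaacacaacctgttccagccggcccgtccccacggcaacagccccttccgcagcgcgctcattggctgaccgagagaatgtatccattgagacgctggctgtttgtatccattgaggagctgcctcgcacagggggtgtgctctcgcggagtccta

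The motifs were searched on both strands. They were the cyclic AMP response element (CRE, TGACGTCA), its shorter core (TGACG, which overlaps it), an AP-1 site (TGANTCA), an EGR site (GCGGGGGCG), an ETS site (CGGAAGT) and the CArG box bound by serum response factor. The CArG box was added after the Dusp5 sequence had been read, so its match there is no independent observation. The Dusp1 window held a full CRE at position -143 from the start site and short cores at -191, -143 and -140, the last pair lying within the CRE. The Dusp5 window held a short core at -55 and CArG boxes at -82 and -72. The Dusp6 window held none of the 6 motifs. Of the matched members not shown, Dusp8 had CREs at -107 and -63, with short cores only within them, and Dusp16 had a short core at -70. Dusp7 and Dusp10 held none of the 6 motifs. Of 32851 promoters of the same length, 1.79% held the CRE, 20.81% the short core, 7.81% the AP-1 site, 2.91% the EGR site, 6.42% the ETS site and 1.63% the CArG box. A match describes letters only.

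Dusp9 in liver was highest in the LP pups, and on its brightest probe set the LPtau pups lay between NP and LP. With probe set 1454737_at, the brightest of its 3 in liver, the NP values were 4.78, 4.61 and 4.49, the LP values 7.72, 6.47 and 7.17. The NPtau values were 5.03, 5.37 and 4.93, and the LPtau values 5.76, 5.41 and 5.31. All 3 LP pups lay above all 9 others. LPtau and NPtau both lay above NP without overlap, and overlapped each other. The LP mean was 2.49 (SE 0.26) above NP, a 5.64-fold ratio. The LPtau mean was 1.63 below LP (log2 difference -1.63), a 3.09-fold ratio, and 0.87 (SE 0.26) above NP, a 1.82-fold ratio. The NPtau mean was 0.48 above NP. The difference of differences, LPtau minus NPtau less LP minus NP, was -2.11 (SE 0.37). These are the values that chose the gene, or share arrays with them. On this probe set the NP values lay below the liver array medians of 5.35 to 5.39. The NPtau and LPtau values (4.93 to 5.76) lay below or near those medians. Whether they exceed background could not be judged, which limits the fold ratios and the order of these diets.

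The other Dusp9 probe sets, all designed on the same transcript record, also had LP highest, with smaller differences. Probe set 1433845_x_at read 4.70, 4.57 and 4.48 in NP, 4.79, 5.24 and 4.48 in NPtau, 7.48, 6.10 and 6.65 in LP, and 5.57, 5.22 and 4.67 in LPtau. Its LP mean was 2.16 (SE 0.33) above NP. Probe set 1433844_a_at read 5.13, 5.14 and 5.11 in NP, 5.30, 5.62 and 4.98 in NPtau, 5.79, 6.06 and 6.02 in LP, and 5.15, 5.37 and 4.96 in LPtau. Its LP mean was 0.83 (SE 0.16) above NP, so the size of the LP difference depends on the probe set. LPtau minus NP was 0.57 and 0.03 for these probe sets, with overlap in both. The NP values of both also lay below the liver array medians. Over the 12 liver arrays 1454737_at correlated with 1433845_x_at at r = 0.98 and with 1433844_a_at at r = 0.81, as a description of probe sets of one gene.

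**Figure D1:**
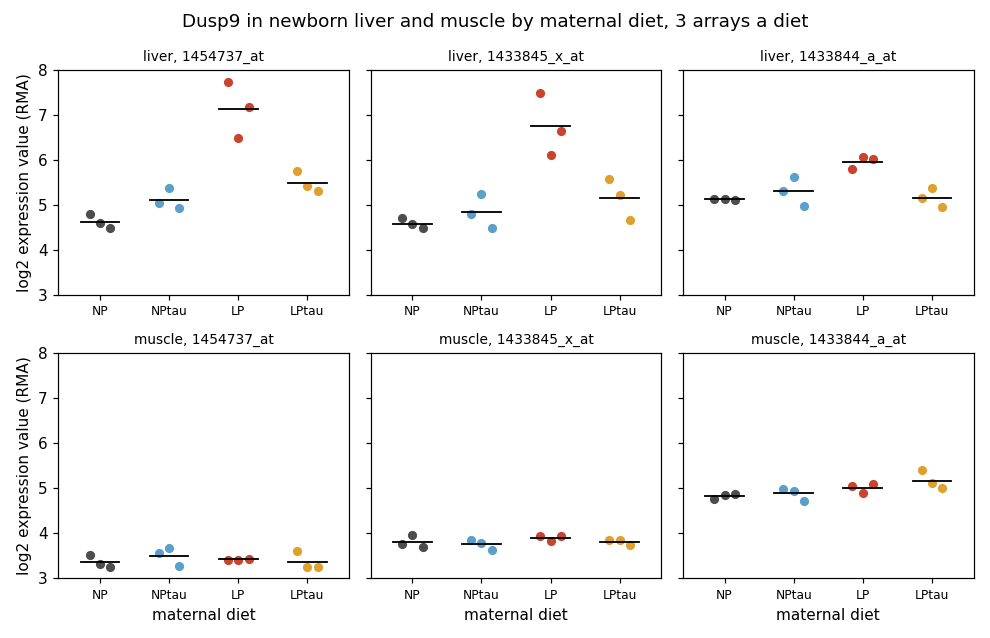
Log2 expression values of the 3 Dusp9 probe sets (columns) in liver (upper row) and muscle (lower row) by maternal diet; points are single arrays and bars are means of 3. The LP points lie above those of the other diets in all 3 liver panels, and the muscle points of 1454737_at stay between 3.24 and 3.66.

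Low protein was tested for Dusp9 in liver by LPtau against NPtau, whose arrays did not choose it. Only the means are free of that choice. The spread was estimated over all 12 liver arrays, so the SE, interval and p also draw on LP and NP. The SD of 1454737_at was 0.62 in LP, 0.15 in NP, and 0.23 in both NPtau and LPtau. The difference of 1454737_at was 0.38 (SE 0.26, 95% interval -0.19 to 0.96), which was not called (limma, adjusted p = 0.998), and 0.25 without LPtau replicate 1. The difference of 1433845_x_at was 0.31 (interval -0.41 to 1.04) and that of 1433844_a_at was -0.14 (interval -0.49 to 0.21), and neither was called. The 3 probe sets thus differed in sign, and the groups overlapped in each. Over all probe sets 0% were called in this contrast.

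In muscle no Dusp9 probe set was called. The values of 1454737_at ran from 3.24 to 3.66 and those of 1433845_x_at from 3.63 to 3.97. Both lay below the muscle array medians of 4.95 to 5.04, and whether they exceed background could not be judged. Probe set 1433844_a_at, the brightest of the 3 in muscle, read 4.75, 4.84 and 4.88 in NP, 4.99, 4.95 and 4.72 in NPtau, 5.05, 4.88 and 5.10 in LP, and 5.40, 5.11 and 5.003 in LPtau. LP lay just above NP without overlap, a difference of 0.19 (interval -0.09 to 0.47, limma adjusted p = 0.708). LPtau lay above NPtau without overlap, by 0.28 (interval 0.01 to 0.56, unadjusted p = 0.046, limma adjusted p = 0.694), and by 0.17 without LPtau replicate 1. The difference between the tissues in LPtau minus NPtau was 0.51 (interval -0.13 to 1.15, limma adjusted p = 0.763) for 1454737_at and -0.43 (interval -0.85 to 0.00233) for 1433844_a_at, again opposite in sign. Liver and muscle arrays of one diet and number may come from one pup, since their sex calls matched for 12 of 12, and the test treats them as separate. With diet and number as a block across tissues, added after seeing the data, no member was called either.

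Dusp9 is on the X chromosome, and the sex of the pups was not balanced over the diets. By Xist and a Y-linked gene, females made up 2 of 3 livers in LP and in NPtau, and 1 of 3 in NP and in LPtau. The LP male had the lowest LP value of Dusp9 1454737_at, 6.47, and the LP females had 7.72 and 7.17. The NPtau male was also lowest, at 4.93, with the females at 5.03 and 5.37. In NP and LPtau a male was highest (4.78 and 5.76), and the female lay between the males (4.61 and 5.41). With sex as a covariate the LP minus NP difference was 2.40 and LPtau minus LP was -1.54. The 3 named genes on either side of Dusp9 on the X chromosome did not show a difference of this size. In liver LP minus NP, Haus7, Bgn and Atp2b3 on one side had 0.33, -0.25 and 0.16, and Pnck, Slc6a8 and Bcap31 on the other 0.17, 0.08 and 0.12.

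Several marker lists of other cell types lay lower in LP than in NP in liver. The lymphocyte list (7 of 8 markers measured) had a mean log2 level of 7.30 to 7.49 in NP, 7.36 to 7.44 in NPtau, 6.05 to 6.50 in LP and 6.61 to 7.42 in LPtau. The endothelial list (8 of 8) had 7.35 to 7.66 in NP, 7.48 to 7.63 in NPtau, 6.99 to 7.24 in LP and 7.45 to 7.71 in LPtau. The stellate and fibroblast list (10 of 10) had 9.10 to 9.22 in NP, 9.06 to 9.61 in NPtau, 8.58 to 8.98 in LP and 9.21 to 9.81 in LPtau. The granulocyte list (8 of 9) had 12.26 to 12.74 in NP, 12.38 to 12.76 in NPtau, 11.46 to 12.19 in LP and 12.10 to 12.65 in LPtau. LP was thus below NP without overlap in these 4 lists, while the erythroid, macrophage and bile duct lists overlapped. The hepatocyte list (7 of 9) was at 14.54 to 14.62 on all 12 liver arrays. There too LP lay just below NP without overlap (14.561 against 14.563 at the nearest values). This list is near the top of the scale (Alb at 14.85 to 15.01), so it cannot show whether hepatocyte content differed. Their part in the Dusp9 values was not tested.

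Over the 12 liver arrays the genes most like Dusp9 1454737_at, of 18192, were Khk (r = 0.95), the ketohexokinase of fructose metabolism, Hal (0.95), histidine ammonia-lyase, Mgst2 (0.94), Gsta2 (0.93) and Per3 (0.93). Hal had means of 8.19 in NP, 8.37 in NPtau, 9.73 in LP and 8.65 in LPtau. Gsta2, a glutathione transferase, had 4.19, 4.24, 5.77 and 4.40 in the same order. The most opposite were Fbp1 (r = -0.95), the gluconeogenic fructose bisphosphatase, Pzp (-0.94), Zfp503 (-0.94), Plxnd1 (-0.94) and Insc (-0.94). Fbp1 had means of 13.90, 13.86, 13.35 and 13.81 in the same order. These correlations carry no test. The arrays share diets and the 3 LP arrays stand apart in Dusp9, so any gene that separates LP from the other diets scores high.

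Of the nuclear inducible members, Dusp1 in liver varied widely between pups of one diet, and most diets overlapped. Its values were 10.25, 10.36 and 10.10 in NP, 10.02, 11.68 and 9.78 in NPtau, 11.26, 10.37 and 10.59 in LP, and 11.70, 11.38 and 10.47 in LPtau. LP lay just above NP without overlap (10.37 against 10.36 at the nearest values), and a single NPtau pup was as high as the highest LPtau pups. LP minus NP was 0.50 (SE 0.46). LPtau minus NPtau was 0.69 (interval -0.33 to 1.70, limma adjusted p = 0.998), and 0.33 to 1.28 with single arrays left out.

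The livers with high Dusp1 had a high mean of 4 immediate early genes, a class switched on within minutes of a stimulus. The mean of Fos, Egr1, Jun and Ier2 in liver was 10.4 in NPtau replicate 2, 9.78 in LP replicate 1, 10.5 in LPtau replicate 1 and 10.1 in LPtau replicate 2, and 7.17 to 8.62 in the other 8 livers. Of these 4 genes, LP replicate 1 had the highest Fos and Egr1 of the LP livers. Its Jun (8.71, against 9.64 and 8.83) and Ier2 (9.06, against 9.16 and 9.11) were the lowest of them. Both were still above NP (7.47 to 8.11 and 8.18 to 8.88). Other genes of the class did not all follow, and in LP replicate 1 Junb was 7.95 (NP 7.97 to 9.18), Klf10 6.33 (NP 8.22 to 8.47) and Atf3 6.12 (NP 5.69 to 7.14). Dusp1 correlated with Fos at r = 0.97 over the 12 liver arrays and at 0.97 within diets. Dusp6 correlated with Fos at 0.86, and at 0.93 within diets, and Dusp7 at 0.73, and at 0.72 within diets. The 12 arrays share 4 diets, and the correlations are descriptions. With the immediate early mean as a covariate, a choice made after seeing the data, LP minus NP in liver was -0.02 for Dusp1 and LPtau minus NPtau 0.06. Fos is part of that mean and follows Dusp1 at r = 0.97, so the Dusp1 differences were bound to shrink and decide nothing. With the same covariate LP minus NP was 2.33 for Dusp9 1454737_at. The causes of these differences were not tested.

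Marker lists also separated some diets in muscle. Cartilage markers (7 of 8 measured) had a mean of 9.57, 9.32 and 5.53 in the 3 LP arrays, 8.10 to 8.66 in LPtau, 5.43 to 6.97 in NP and 5.79 to 7.42 in NPtau. The muscle fibre list (10 of 10) had 13.91 to 13.99 in NP, 13.41 to 14.00 in NPtau, 13.29 to 13.81 in LP and 13.61 to 14.01 in LPtau. The endothelial list (8 of 8) had 8.23 to 8.45 in NP, 8.07 to 8.62 in NPtau, 7.78 to 8.14 in LP and 7.38 to 8.28 in LPtau. LP was below NP without overlap in the fibre and endothelial lists. The part of these cells in the muscle differences of Dusp6, Dusp7, Dusp8 and Dusp10 was not tested.

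In muscle LP replicate 1 decided the Dusp1 mean. It read 11.73, and the other 11 arrays 9.31 to 10.47, and its immediate early mean of 10.8 was also the highest. LP minus NP was 0.67 for Dusp1 (interval -0.43 to 1.76, limma adjusted p = 0.748) and -0.04 without that array. Dusp5 had the same array at 6.53, with 4.86 and 5.22 in the other LP pups and 4.89 to 5.17 in NP. Its difference was 0.48, and -0.02 without that array. Dusp5 correlated with Dusp1 at r = 0.87 in muscle over 12 arrays, and with Egr1 at 0.86. With Jun the muscle correlations were lower, 0.34 for Dusp1 and 0.24 for Dusp5. This array and LPtau replicate 1 also stood apart over all probe sets, with residual SDs of 0.366 and 0.351 against 0.168 to 0.264 on the other muscle arrays.

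**Figure D2:**
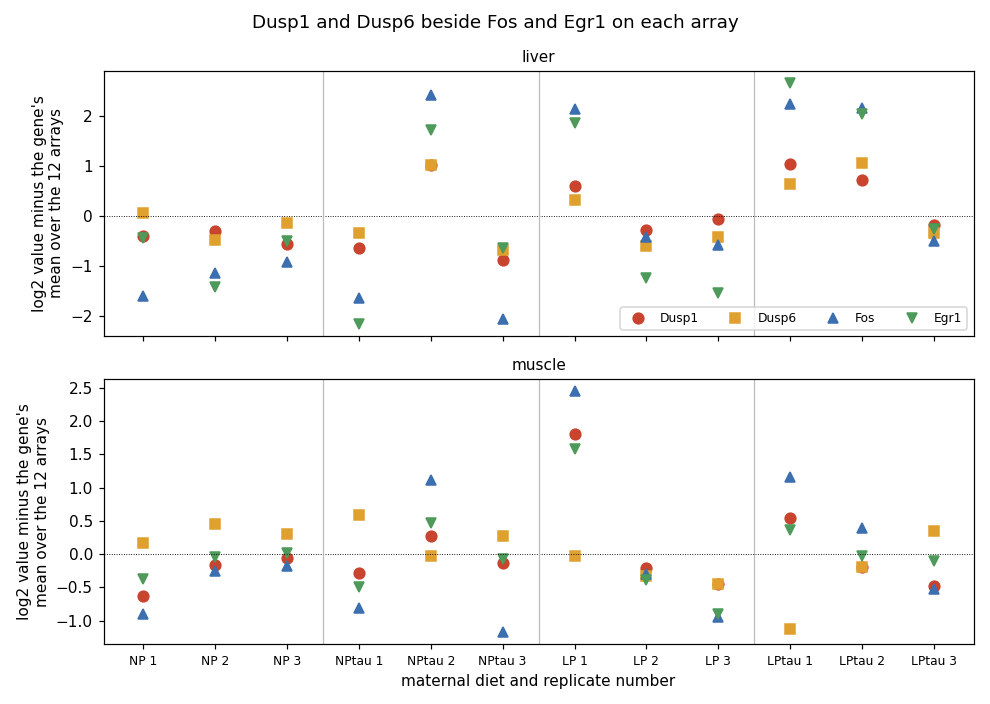
Log2 values of Dusp1, Dusp6, Fos and Egr1 on each array, minus the mean of that gene over the 12 arrays of the tissue (y axis), by maternal diet and replicate number. In liver the 4 genes are high together in NPtau 2, LP 1, LPtau 1 and LPtau 2, and in muscle Dusp6 and Fos have r = -0.40.

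Dusp4 in liver had values of 4.85, 4.996 and 4.92 in NP, 4.79, 4.51 and 4.76 in NPtau, 4.90, 4.61 and 4.53 in LP, and 4.80, 5.06 and 5.43 in LPtau. Apart from 5.43 in LPtau, these values lay below the liver array medians of 5.35 to 5.39, and whether they exceed background could not be judged. Dusp4 was the member whose LPtau and NPtau livers did not overlap, by 0.41 (interval 0.06 to 0.76, unadjusted p = 0.026, limma adjusted p = 0.998). The gap between the nearest values was small (4.80 against 4.79), and the difference was 0.24 without LPtau replicate 3. In muscle LPtau minus NPtau was -0.74 (interval -1.52 to 0.04) with overlap, and -0.35 without NPtau replicate 3. The difference between the tissues was 1.15 (interval 0.29 to 2.00, unadjusted p = 0.011, limma adjusted p = 0.752), and 0.76 without that array. Dusp5 in liver was 0.70 higher in LPtau than LP (interval 0.03 to 1.37, limma adjusted p = 0.692).

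Among the cytoplasmic ERK phosphatases, Dusp6 in liver was high in the pups with high immediate early genes, and its diets overlapped. Its values were 8.79, 8.26 and 8.59 in NP, 8.39, 9.75 and 8.04 in NPtau, 9.05, 8.12 and 8.30 in LP, and 9.36, 9.78 and 8.39 in LPtau. LPtau minus NPtau was 0.45 (interval -0.54 to 1.45), and 0.11 to 0.96 with single arrays left out. In muscle Dusp6 correlated with Fos at r = -0.40 over 12 arrays (-0.24 within diets) and with Jun at 0.55 (0.77 within diets). Its muscle values were 8.88, 9.16 and 9.01 in NP, 9.29, 8.68 and 8.98 in NPtau, 8.68, 8.38 and 8.26 in LP, and 7.58, 8.51 and 9.06 in LPtau. LP lay below NP without overlap, by -0.58 (interval -1.25 to 0.10, limma adjusted p = 0.580), and LPtau was spread over both.

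Dusp7 in muscle was higher in LP on all 3 of its probe sets. Probe set 1427416_x_at read 6.49, 6.17 and 6.33 in NP, 6.42, 6.58 and 6.20 in NPtau, 7.78, 6.43 and 7.21 in LP, and 6.37, 6.68 and 6.39 in LPtau. The LP minus NP differences were 0.81 (SE 0.27, limma adjusted p = 0.293), 0.55 (adjusted p = 0.477) and 0.56 (adjusted p = 0.506), and none was called. LP replicate 2 overlapped NP on the first probe set. Without it the difference was 1.17 (SE 0.19) and the probe set was called (adjusted p = 0.0456). Without LP replicate 1 it was 0.49. LPtau minus NPtau was 0.08, -0.07 and -0.07. In liver all Dusp7 probe sets had LP minus NP differences of 0.02 to 0.07.

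**Figure D3:**
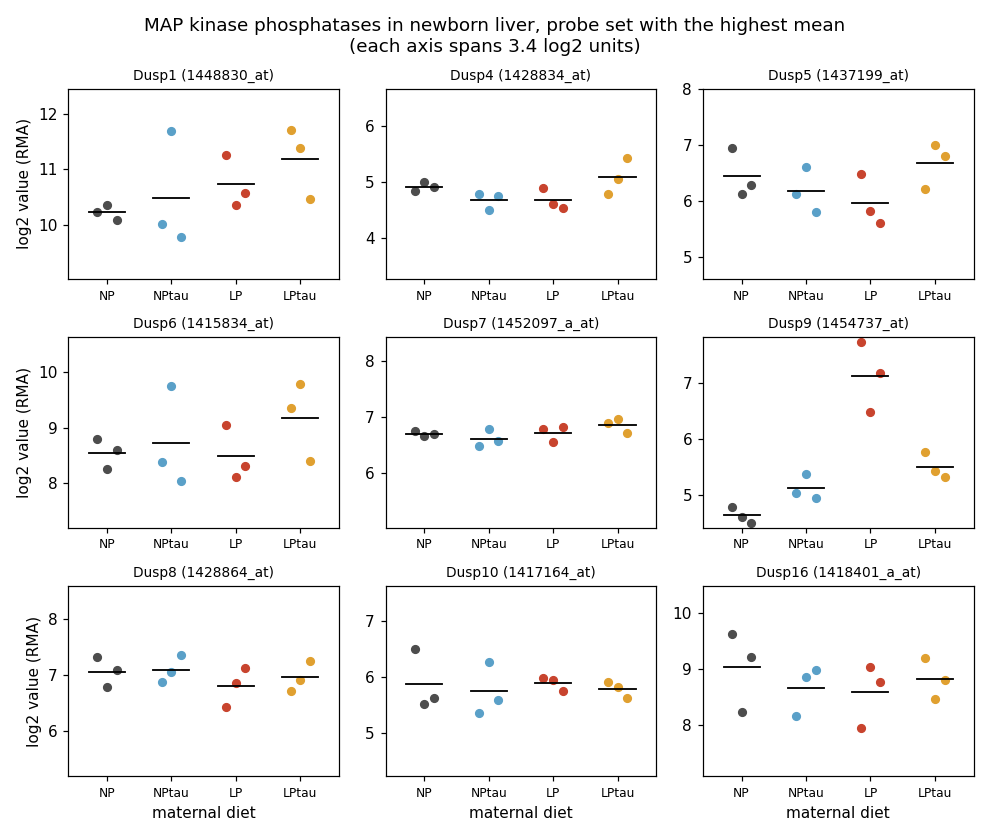
Log2 expression values in liver of each member's brightest probe set by maternal diet; points are single arrays, bars are means of 3 and every axis spans the same log2 range. Dusp9 is the panel in which the 3 LP points lie far above the rest, while Dusp1 and Dusp6 have high points in NPtau, LP and LPtau.

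Of the JNK and p38 phosphatases, Dusp10 in muscle was lower in LP. Probe set 1417163_at read 5.78, 5.79 and 5.40 in NP, 6.15, 6.01 and 5.68 in NPtau, 4.70, 5.07 and 4.87 in LP, and 4.99, 5.42 and 5.79 in LPtau. LP lay below NP without overlap, by -0.78 (interval -1.24 to -0.32, unadjusted p = 0.003, limma adjusted p = 0.176). LPtau minus NPtau was -0.54 (limma adjusted p = 0.694) and LPtau minus LP 0.52 (adjusted p = 0.387). The brighter probe set, 1417164_at, had -0.42 in LP minus NP with overlap, and -0.61 in LPtau minus NPtau without overlap. Without LPtau replicate 1, one of the arrays that stood apart, LPtau minus NPtau was -0.34 for 1417163_at and -0.30 for 1417164_at. None of these was called. In liver 1417163_at was nearly level, from 4.83 to 5.16 over the 12 arrays. These values lie below the liver array medians of 5.35 to 5.39, and whether they exceed background could not be judged. The difference between the tissues in LPtau minus NPtau was 0.67 for 1417163_at (interval 0.18 to 1.15, unadjusted p = 0.010, limma adjusted p = 0.752). For 1417164_at it was 0.65, with an interval that includes 0 (-0.15 to 1.44, limma adjusted p = 0.763).

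Dusp8 gave different answers by probe set in liver. Probe set 1447346_s_at read 5.91, 5.88 and 5.60 in NP, 5.75, 5.99 and 5.96 in NPtau, 6.25, 6.22 and 6.53 in LP, and 5.92, 6.02 and 6.03 in LPtau. It was 0.54 (SE 0.12) above NP in LP, while 1428864_at and 1418714_at were at -0.26 and -0.22. LPtau minus LP of 1447346_s_at was -0.34 (interval -0.61 to -0.08, limma adjusted p = 0.578). In muscle the 3 probe sets had one sign. For 1428864_at the values were 7.66, 7.24 and 7.33 in NP, 7.12, 7.21 and 7.07 in LP, and 7.51, 7.52 and 7.66 in LPtau. LP lay below both, with LP minus NP at -0.28 (adjusted p = 0.458), or -0.16 without NP replicate 1, and LPtau minus LP at 0.43 (interval 0.16 to 0.70, unadjusted p = 0.005, limma adjusted p = 0.253).

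Dusp16 in liver was spread within diets on its brightest probe set, 1418401_a_at, with 9.62, 8.23 and 9.22 in NP and 7.93, 9.03 and 8.76 in LP. In muscle LPtau replicate 1 was low at 7.38, and the other 11 arrays were at 8.21 to 8.73. The second probe set, 1440615_at, was 0.38 higher in LP than NP in muscle without overlap (limma adjusted p = 0.425). The 2 probe sets correlated at r = -0.02 in muscle.

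**Figure D4:**
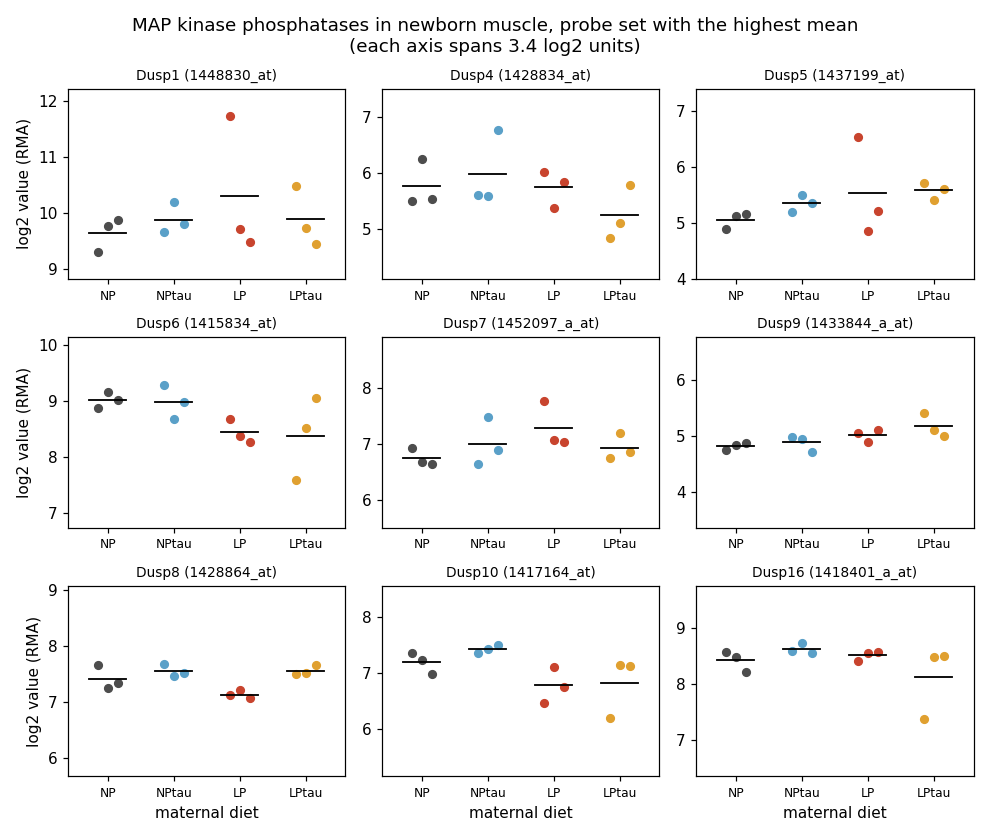
Log2 expression values in muscle of each member's brightest probe set by maternal diet; points are single arrays, bars are means of 3 and every axis spans the same log2 range. LP replicate 1 is the high point of Dusp1 (11.73) and Dusp5 (6.53), and the LP points of Dusp6 and Dusp8 lie below those of NP.

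No member probe set was called in any of the 8 tested contrasts, at a limma adjusted p under 0.05. In muscle LP minus NP 0.0178% of all probe sets were called (8 of 45037), in muscle LPtau minus LP 0.0133% (6), and 0% in the others. At an unadjusted p under 0.05, which is not a call, there were 5 of 17 member probe sets in muscle LP minus NP, where 10.3% of all probe sets were under it. There were 4 of 17 in muscle LPtau minus LP (11.3% of all), 3 of 17 in muscle LPtau minus NPtau (6.32%), 3 of 14 in liver LPtau minus LP (7.06%) and 1 of 17 in liver LPtau minus NPtau (4.45%). There were none in either NPtau minus NP contrast, and 2 of 17 in the difference between tissues (6.55%).

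In muscle LP minus NP, 7 of 17 member probe sets had diets that did not overlap, against 18.6% of all probe sets. In muscle LPtau minus LP it was 3 of 17 (15.1% of all), in muscle LPtau minus NPtau 3 of 17 (11.4%) and in liver LPtau minus NPtau 1 of 17 (8.75%). In liver LPtau minus LP it was 4 of 17 (12.1%), of which 3 were Dusp9. In liver LP minus NP, the contrast that chose Dusp9, it was 5 of 17, 3 of them Dusp9, and 27.8% of all probe sets. An exact two-sided test of 3 against 3 arrays cannot give a p below 0.1.

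**Figure D5:**
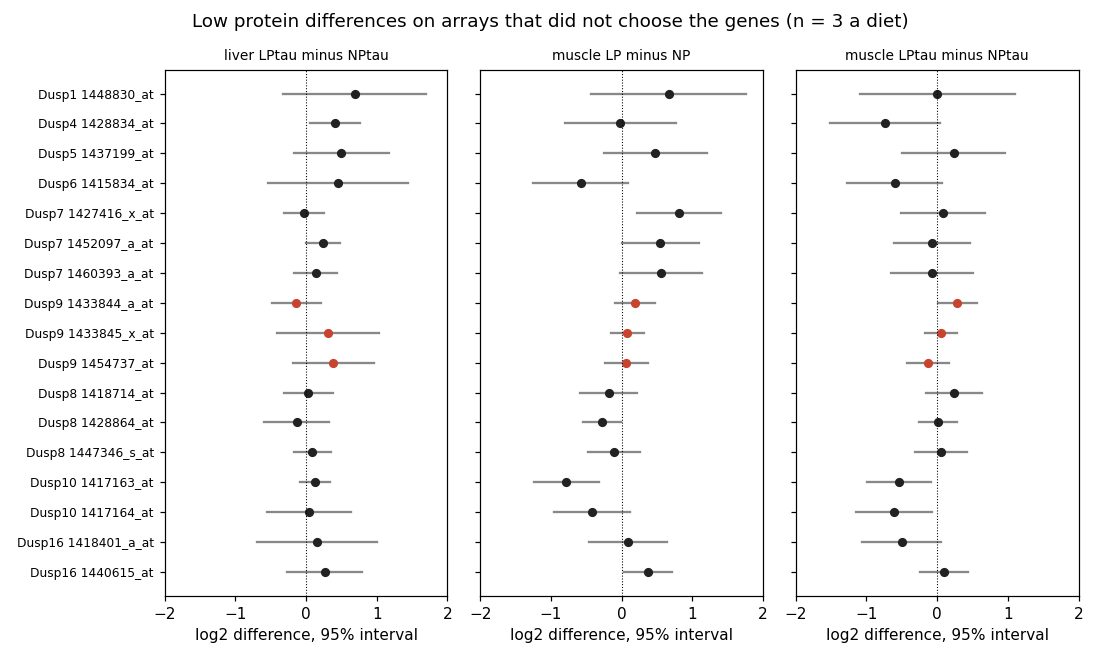
Log2 differences (x axis) with 95% intervals from limma for each member probe set, 3 arrays a diet, with Dusp9 in red. The low protein contrasts shown compare arrays that did not choose the genes. The liver intervals use the spread of all 12 liver arrays. Most intervals include 0, and in muscle LP minus NP those of Dusp10 1417163_at (-0.78) and Dusp7 1427416_x_at (0.81) are the farthest from 0 among those that do not.

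The rest of the pathway was described by 6 lists drawn up by pathway membership. No gene of these lists was called by limma in the 7 tested contrasts within a tissue. Of the ERK pathway kinases 9 of 14 listed were measured, of the JNK and p38 kinases 13 of 14, of the ERK feedback inhibitors (Spry and Spred genes) 7 of 7, of the immediate early and ERK target genes 19 of 20, of the other dual specificity phosphatases 13 of 13, and of the growth factor receptors 14 of 14. In liver LPtau minus LP the immediate early list had a median of 0.39, with 15 of 19 positive and 6 of 19 at an unadjusted p under 0.05, against a median of -0.01 and 7.06% of probe sets under that p over the whole array. Klf10, a TGF-beta-inducible transcription factor, was 1.72 (SE 0.24) higher there (limma adjusted p = 0.0856) and Fosl2 1.28 higher (adjusted p = 0.300). Both were low in LP rather than high in LPtau. Klf10 means were 8.37 in NP, 8.11 in NPtau, 6.73 in LP and 8.46 in LPtau. In liver LP minus NP, where no test is given, Klf10 was at -1.64 (SE 0.24), Fosl2 at -1.40 (SE 0.29), Dusp2 at -0.80 (SE 0.14) and Dusp28 at 0.77 (SE 0.15). The immediate early list had a median of -0.07 there, with 10 of 19 negative.

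In muscle LP minus NP, other dual specificity phosphatases had the smallest p of these lists. Dusp28 was at -0.79 (SE 0.13, limma adjusted p = 0.0715) and Dusp22 at -0.65 (SE 0.11, adjusted p = 0.0725). Both were higher in LPtau than LP, by 0.79 and 0.49. Those differences share the LP arrays by which the 2 genes were named, so they are description only. The list's median was -0.25, with 9 of 13 negative and 4 of 13 at an unadjusted p under 0.05, against a median of -0.01 over all genes and 10.3% of all probe sets under that p. The growth factor receptors had a median of 0.21 with 9 of 14 positive. They were led by Fgfr2 (1.61, limma adjusted p = 0.258), Fgfr3 (1.46, adjusted p = 0.180) and Fgfr1 (0.87, adjusted p = 0.197). The cartilage markers were high on 2 of the 3 LP arrays of this contrast (9.57, 9.32 and 5.53), and at 8.10 to 8.66 in LPtau. The part of cartilage in the receptor differences was not tested.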

How the data were processed

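The 24 arrays held deposited log2 values per probe set, which per the submitters' processing notes the authors made by RMA (R 2.7.0). MAS5 is also named there with no role stated. Liver and muscle were normalized apart, per the labels. No further normalization or filter was applied, 64 control probe sets were left out and 0 columns had no sample.

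Tests used limma 3.58.1 (lmFit, contrasts.fit and eBayes, under R 4.3.3), separately for the 12 arrays of a tissue, with a mean per diet, over all 45037 probe sets, with Benjamini-Hochberg adjustment and calls at adjusted p under 0.05. The tissue difference used 24 arrays with 8 means and treated liver and muscle as separate samples. The fit was tested on simulated data. Members, lists, contrasts and alternatives were chosen with earlier results of these data known. The text names all 9 members, the 5 genes most and least like Dusp9, its 3 X neighbours on each side and genes of the lists with the smallest p. A member's brightest probe set in a tissue leads its account, or another where its groups differ more, which was chosen after the values were seen. Motifs were searched in RefSeq promoters, and the CArG box was added after the sequences had been read. Sex calls matched between liver and muscle for 12 of 12 diet and replicate numbers, so these may be the same pups, and a block across tissues was added. Within a tissue, the deviations of same-numbered samples correlated at -0.31 to 0.36, with both signs under every number, and no pairing was used.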

Additional observations from a re-analysis of the deposited data

How the results depend on the processing

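Members called stayed at 0 in all 8 tested contrasts under cyclic loess, brighter probe sets, 1 probe set a gene, only the diets compared, sex covariate, array weights and the added immediate early covariate, wherever each was run. The exception was muscle LP minus NP, where leaving out single arrays gave 0 to 1 (Dusp7 1427416_x_at without LP replicate 2). With the replicate number as a block (replicate block) 0 members were called, and over all probe sets 1 in liver LPtau minus NPtau, 1 in muscle LP minus NP and 0 in muscle LPtau minus LP. With diet and number as a replicate block across tissues, the tissue difference had 0 called over all probe sets. Counts over all probe sets moved more than the members did. Muscle LP minus NP had 8, with a range of 1 to 1045, the highest without LP and LPtau replicate 1. Muscle LPtau minus LP had 6, with a range of 0 to 172. Liver LPtau minus LP had 0, with a range of 0 to 379, the highest without LP replicate 1. The causes were not tested. Dusp9 1454737_at in liver LP minus NP ranged from 2.20 to 2.82 over 20 alternatives. Signal over background could not be judged, as the deposited values carry no detection call.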
